A study of Mus musculus with 14 samples.

Results

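The experiment described here set primary bone marrow-derived macrophages (pBMDMs) that were exposed for 24 h to ferroptotic supernatant against pBMDMs exposed for 24 h to fresh medium. Both groups held wildtype mouse pBMDMs, which the study grew from bone marrow of C57BL/6N mice with M-CSF. The ferroptotic supernatant (4OHT, 3 replicates) came from Pfa1 mouse embryonic fibroblasts (MEFs), a single line in which 4-hydroxytamoxifen (4OHT, 1 μM) switches on a deletion of GPX4. Fresh medium (medium, 2 replicates) is labelled as neither ferroptotic nor non-ferroptotic supernatant, and no treatment with 4OHT is given for it. The samples were taken by their titles, 5 of 14 in the series. The other 9 samples were pBMDMs on supernatants of MEFs that the labels call non-ferroptotic: untreated (ctrl), with 4OHT and the ferroptosis inhibitor Ferrostatin-1 (4OHT+Fer1) and with Ferrostatin-1 alone (Fer1), 3 replicates each. They are called non-ferroptotic supernatants below and are used for the fit and for values side by side. The comparison asks how macrophages on ferroptotic supernatant differ from macrophages that met no MEF supernatant. Products of dying MEFs, products that living MEFs also release, what MEFs take up from their medium, and 4OHT itself cannot be told apart within the 5 samples. The study kept pBMDMs in RPMI and Pfa1 MEFs in DMEM, and the paper does not say which of them the fresh medium was. A difference in base medium can therefore not be told apart either.

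Ferroptosis is an iron-dependent form of regulated necrosis in which peroxidized lipids accumulate in membranes. GPX4 is the enzyme that reduces these lipid peroxides, and cells that lose it die unless a radical-trapping agent such as Ferrostatin-1 is present. Macrophages derived from bone marrow depend on M-CSF, which drives both their survival and their division, and they hold a tonic interferon response and MHC class II expression that vary with culture conditions. Fibroblasts release M-CSF and other growth factors into their medium, as well as matrix proteins and lipids.

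Counts from the 3′ ends of transcripts (QuantSeq) were estimated per gene. The 5 libraries held 7823051 to 11052352 counts, at which 3 counts, the least taken as told from none, correspond to 0.271 to 0.383 CPM, the count relative to the library total after scaling by the TMM factors of edgeR. All CPM values below are levels on this scale, and intervals and floors cover counting error only. The study's own model had the mouse as a batch, but the labels give only a replicate number, so that the p-values measure the spread between samples. That spread was estimated over all 14 samples of the series, including the 9 on non-ferroptotic supernatants, and not from the 5 libraries alone. Within a group the libraries varied beyond counting error: the chi-square statistic divided by its degrees of freedom ran from 18.7 for the medium pair to 82.9 for 4OHT replicates 1 and 3. The 4OHT replicate 3 had the highest share of mitochondrially encoded counts, 10.6%, against 4.53% and 6.61% in 4OHT replicates 1 and 2 and 5.46% and 7.77% in medium. All 10 macrophage markers were tested, and Adgre1, which encodes F4/80, was at 1105 and 1048 CPM in medium and at 1029, 879 and 1023 CPM in 4OHT. Of these markers 2 were called lower in 4OHT, Aif1 and Fcgr1, against 1.64% of all genes, and the other 8 were not called. Markers of neutrophils, dendritic cells, B cells, T and NK cells and mast cells gave 4, 2, 3, 1 and 0 genes with enough counts to be tested, and of these 10 genes 0 were called by edgeR's quasi-likelihood test and 0 by DESeq2, with 3 at an unadjusted p under 0.05. All 4 tested neutrophil markers, S100a8, S100a9, Camp and Ngp, were lower in every 4OHT sample than in both medium samples. Over all genes tested, 28.6% had no overlap between the groups in either direction. The 4 markers had a median log2 fold change of -1.08. Their summed level was 38.2 and 55.0 CPM in medium and 28.0, 23 and 4.05 CPM in 4OHT. The defining marker Ly6g was at 0, and the part of these markers in the genes that were lower was not tested. In bulk RNA, fewer cells of a kind and less RNA per cell cannot be told apart.

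Of 12851 genes tested, 394 (3.07%) differed between the 4OHT and medium samples by more than 1 on the log2 scale with an adjusted p below 0.05, and such genes are said to be called. The test was edgeR's quasi-likelihood test, fitted to the whole set of 14 libraries and blocked on replicate number, with Benjamini-Hochberg adjustment. Since medium has no replicate 3, the fit sets 4OHT replicate 3 against medium through a replicate effect that is estimated with the other groups. Fold changes can therefore differ from what the printed CPM values give. 183 (1.42%) were higher and 211 (1.64%) lower in 4OHT. With counts scaled by library totals in place of TMM, 232 were higher and 161 lower. Of the 394 genes, 357 had no overlap between the CPM values of the 3 4OHT samples and the 2 medium samples, which also held for 28.6% of all genes tested. Without the block 97 genes were called, 67 higher and 30 lower. Without medium replicate 1 or 2, 74 and 77 genes were called, without 4OHT replicate 1 or 2, 200 and 255, and without the 5 libraries of replicate 1 or the 5 of replicate 2, from all groups, 2 and 0 (edgeR's quasi-likelihood test, with 1024 genes at an unadjusted p under 0.05 in the last case). An exact permutation test of 3 samples against 2 has 10 assignments and cannot give a two-sided p below 0.1, so it was not used for single genes.

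**Figure D1:**
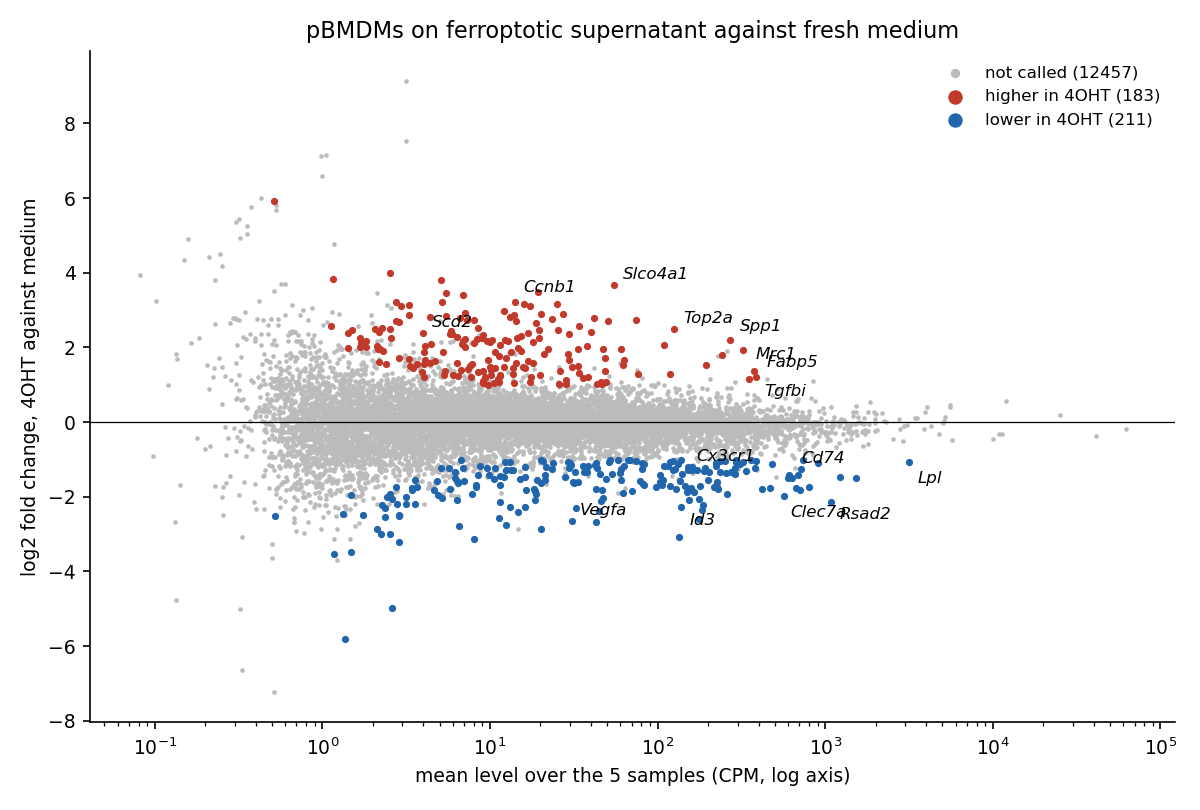
Each point is 1 of the genes tested, placed by its mean level over the 4OHT and medium samples (CPM, log axis) and its log2 fold change in 4OHT against medium. The 183 genes called higher lie above the line at 0 and the 211 called lower below it, the latter reaching to Lpl, at 4308 and 4515 CPM in medium.

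The 183 genes called higher in 4OHT had a median log2 fold change of 1.95 against medium. For the same genes the median difference from medium was 2.93 in ctrl, 2.92 in 4OHT+Fer1 and 2.96 in Fer1. The 211 genes called lower had a median of -1.54 in 4OHT, -1.47 in ctrl, -1.43 in 4OHT+Fer1 and -1.42 in Fer1. All 4 comparisons share the medium samples, and the genes were picked in the first of them, so that these medians are given side by side and not tested. On the axis of largest variance over 500 genes, which took 34.6% of the variance, the medium samples stood at -43.3 and -33.9 and the 4OHT samples at -8.23, -2.17 and -18.6, with all samples on non-ferroptotic supernatants between 7.83 and 18.3.

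Genes of cell division were higher in 4OHT. Of 30 tested genes of mitosis and chromosome segregation, 24 were called higher and 0 lower, against 1.42% of all genes called higher. Their median log2 fold change was 2.48, against 0.01 over all genes. Summed over the list, the level was 259 and 347 CPM in medium and 1331, 1745 and 570.5 CPM in 4OHT, so that the groups did not overlap and 4OHT replicate 3 lay nearest to medium. On non-ferroptotic supernatants the sum lay between 2482 and 3264 CPM. Without the block 19 genes of the list were called higher, and without medium replicate 1, medium replicate 2, 4OHT replicate 1 and 4OHT replicate 2 there were 2, 4, 14 and 14.

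Ccnb1, the cyclin that activates CDK1 at entry into mitosis, was at 1.40 and 3.67 CPM in medium and at 29.0, 32.5 and 4.43 CPM in 4OHT. Its log2 fold change was 3.21 (SE, standard error, 0.60, adjusted p = 0.0108), with 4OHT replicate 3 just above the higher medium sample. Ccnb2, the second B-type cyclin, rose by a log2 fold change of 3.18, from 2.67 and 3.00 CPM to 29.0, 39.3 and 5.82 CPM. Ccna2, the cyclin of S phase and early mitosis, rose by 2.98. The mitotic kinases Bub1 (log2 fold change 3.40), Plk1 (2.87), Aurka (2.13) and Melk (3.15) rose as well, and so did Cdc20, the activator of the anaphase-promoting complex, from 1.02 and 5.56 CPM to 39.5, 31.7 and 8.23 CPM (3.11). Prr11, a gene expressed in dividing cells, had a log2 fold change of 3.82 (SE 0.65, adjusted p = 0.00696), with 0.254 and 0.890 CPM in medium and 11.4, 10.6 and 2.53 CPM in 4OHT. Medium held at most 8 counts of Prr11 per sample, and 0.254 CPM lies under the floor of 3 counts, so that the size of this fold is uncertain. The spindle motors Kif11 (2.19) and Kifc1 (3.23), the spindle pole protein Aspm (3.16) and the kinetochore protein Cenpf (2.72) were higher too. Kifc1 had at most 5 counts in a medium sample, so that its fold is uncertain as well.

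Top2a, the topoisomerase that untangles sister chromatids, was among the most abundant genes of the list. It was at 24.5 and 44.4 CPM in medium and at 191, 279 and 90.7 CPM in 4OHT, a log2 fold change of 2.49 (SE 0.38, adjusted p = 0.00409). Mki67, the proliferation marker Ki-67, was at 10.7 and 23.1 CPM in medium and at 96.8, 171 and 71.4 CPM in 4OHT (2.75, SE 0.35, adjusted p = 0.00176). For both genes every 4OHT sample exceeded both medium samples, and every sample on non-ferroptotic supernatants exceeded every 4OHT sample. The 9 non-ferroptotic samples lay between 429 and 687 CPM for Top2a and between 230 and 393 CPM for Mki67. In the test of 4OHT against the mean of the non-ferroptotic supernatants, in which 1.7% of all genes were called, Top2a (-1.58, adjusted p = 0.00745) and Mki67 (-1.51, adjusted p = 0.00572) were lower in 4OHT, and so were 15 of the 30 genes of the list. Ccnb1 (-1.12, adjusted p = 0.163) was not called in that test.

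Of 34 tested genes of DNA replication and S phase, 3 were called higher and 0 lower, against 1.42% of all genes called higher, with a median log2 fold change of 0.59 and 32 of 34 above 0. Their summed level was 469 and 500 CPM in medium and 555, 585 and 471 CPM in 4OHT, where replicate 3 lay inside the range of medium. The 3 were Cdc45, a subunit of the replicative helicase (2.03, adjusted p = 0.0113), Clspn, which links the replication fork to checkpoint kinases (1.15, adjusted p = 0.00409), and Rrm1, the large subunit of ribonucleotide reductase (1.03, adjusted p = 0.00571). Clspn was at 5.59 and 7.45 CPM in medium and at 13.3, 16.3 and 12.9 CPM in 4OHT, with no overlap and with 4OHT replicate 3 close to the other replicates. Of 20 genes of homologous recombination and Fanconi repair, 5 were called higher (median 1.19). That count was 9 by DESeq2 and 0 without the block, where 11 of the 20 had an unadjusted p under 0.05, and it was 0, 1, 1, 0 and 10 without medium replicates 1 and 2 and 4OHT replicates 1, 2 and 3. The base excision glycosylase Neil3, which is most abundant in dividing cells, rose by 3.10. Of 21 tested cyclins, CDK inhibitors, E2F factors and Myc, only E2f7, a repressor of E2F targets, was called (2.16, adjusted p = 0.0335), and the median was 0.15.

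**Figure D2:**
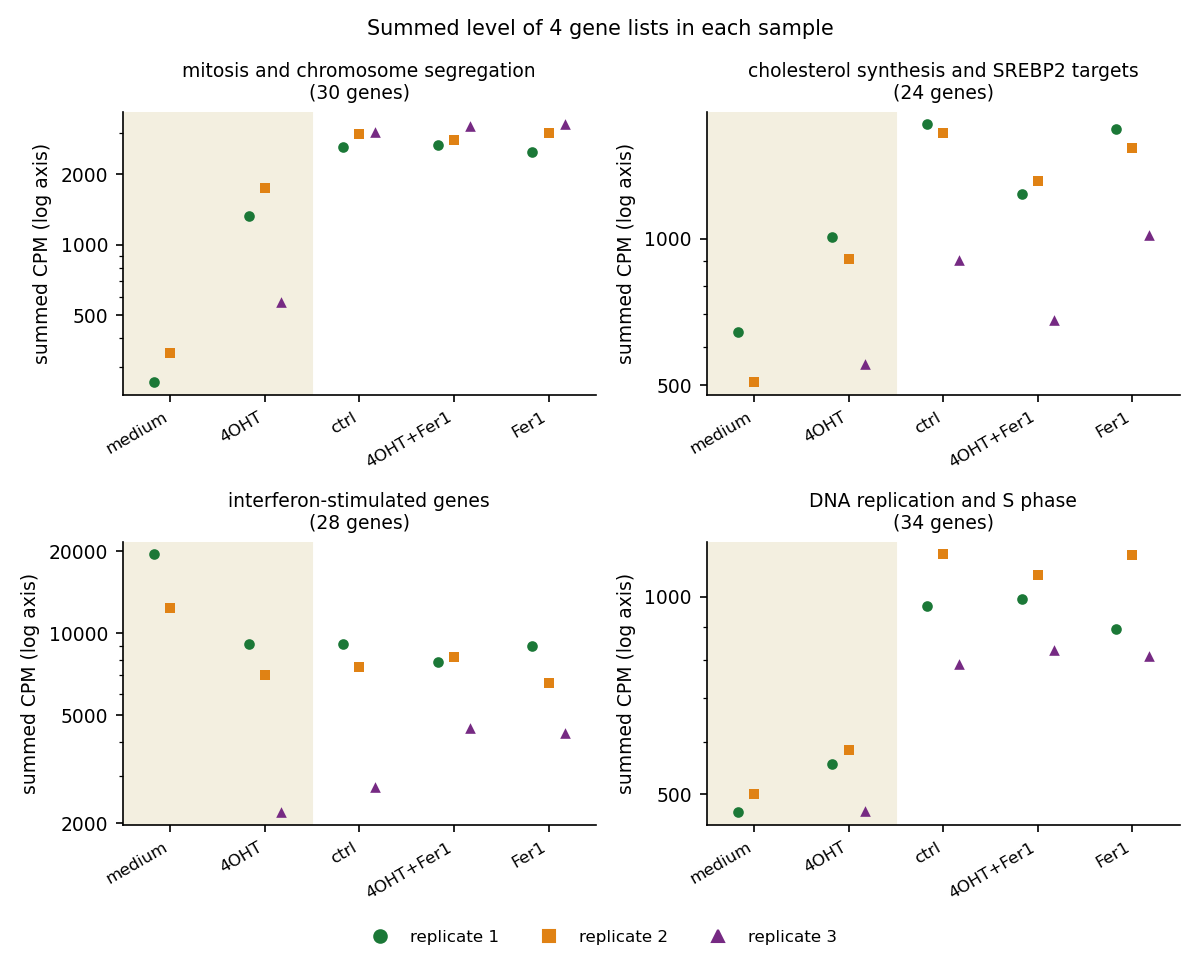
Summed level of 4 gene lists in every sample (CPM, log axis), with 1 point a sample, shaped by replicate number and the shaded columns marking the comparison. Mitosis genes rose from 259 and 347 CPM in medium to at least 570.5 CPM in 4OHT and reached at least 2482 CPM on every non-ferroptotic supernatant, while interferon-stimulated genes were highest in the medium samples.

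Promoter sequence is shown for 2 genes of this group, because their members moved together and because the cell cycle genes homology region (CHR, TTTGAA) and the CCAAT box are known elements of late cell cycle promoters. The windows run from 250 bases before to 30 bases after the annotated start (RefSeq, GRCm38.p6), and capitals mark CHR and CCAAT matches. Cdc20 is shown from chr4:118437314-118437593 on the minus strand and Ccnb2 from chr9:70421525-70421804 on the minus strand.
Cdc20: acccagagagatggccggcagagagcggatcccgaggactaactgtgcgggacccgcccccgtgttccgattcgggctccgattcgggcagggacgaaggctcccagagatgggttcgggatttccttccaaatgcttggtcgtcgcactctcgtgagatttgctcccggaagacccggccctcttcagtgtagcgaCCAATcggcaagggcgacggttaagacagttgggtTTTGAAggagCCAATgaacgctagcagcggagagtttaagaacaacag
Ccnb2: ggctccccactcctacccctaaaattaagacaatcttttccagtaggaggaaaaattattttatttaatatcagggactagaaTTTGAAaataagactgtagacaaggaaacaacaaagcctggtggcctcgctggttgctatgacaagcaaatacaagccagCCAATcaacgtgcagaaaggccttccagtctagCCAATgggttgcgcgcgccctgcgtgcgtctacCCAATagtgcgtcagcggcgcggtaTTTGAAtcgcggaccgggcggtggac
In Cdc20 a CHR match starts 18 bases before the start and CCAAT matches start 53 and 8 bases before it. In Ccnb2 CCAAT matches start 87, 54 and 21 bases before the start, with 1 CHR match further upstream and 1 just after the start. Windows were held for 25 of the 30 tested genes of the mitosis list, and 15 (60%) of these contained TTTGAA on either strand, against 19.5% of the 27025 genes with a window and 14.1% of the 9406 tested genes with one. CCAAT on either strand was in 20 of the 25 (80%), against 39.7% of all and 42.7% of tested genes with a window. It was not particular to this list, since 16 of 17 tested genes of cholesterol synthesis and SREBP2 targets with a window (94.1%) also held it. Of the 150 genes called higher that had a window, 36% held the CHR letters and 62.7% the CCAAT letters. The corresponding shares among the 140 genes called lower were 22.9% and 42.1%. Matches to the CHR and the CCAAT letters can share at most 1 base. A match is a description of the sequence and not evidence of binding.

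Some genes of sterol and fatty acid synthesis were also higher in 4OHT. Of 24 tested genes of cholesterol synthesis and SREBP2 targets, 5 were called higher and 0 lower, against 1.42% of all genes called higher, with 23 of 24 above 0 and a median log2 fold change of 0.90. Among the 5 were Sqle, the squalene epoxidase (1.45, adjusted p = 0.022), Fdps, the farnesyl diphosphate synthase (1.32, adjusted p = 0.00615), Acat2, a thiolase at the head of the pathway (1.22, adjusted p = 0.019), and Hsd17b7, a ketosterol reductase (1.04, adjusted p = 0.0375). Fdps was at 26.2 and 18.5 CPM in medium and at 54.8, 45.6 and 23.9 CPM in 4OHT. The groups overlapped, since 4OHT replicate 3 lay between the medium samples, and replicate 3 was also the lowest of its group in ctrl, at 41.5 CPM against 148 and 130 CPM. Hmgcs1, the synthase of HMG-CoA, had a log2 fold change of 0.89 that stayed under the fold threshold (adjusted p = 0.00865). Without the block 0 genes of the list were called by edgeR, with 2 at an unadjusted p under 0.05, and DESeq2 with the block called 6. Without medium replicates 1 and 2 and 4OHT replicates 1, 2 and 3 there were 1, 0, 1, 3 and 3.

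Of 17 genes of fatty acid synthesis and desaturation, 2 were called higher, both desaturases. Over all genes 1.42% were called higher and 1.64% lower. Scd2, a delta-9 desaturase, was at 4.83 and 2.56 CPM in medium and at 19.5, 14.6 and 3.16 CPM in 4OHT, a log2 fold change of 2.27 (SE 0.26, adjusted p = 0.00116), with replicate 3 inside the range of medium. Fads2, the delta-6 desaturase of polyunsaturated fatty acid synthesis, was at 2.29 and 2.34 CPM in medium and at 12.5, 11.8 and 2.66 CPM in 4OHT, with the same log2 fold change, 2.27. On non-ferroptotic supernatants both stood higher still, Scd2 between 12.6 and 132 CPM and Fads2 between 13.9 and 70.9 CPM, and the difference of 4OHT from their mean was -2.69 (adjusted p = 6.6e-05) and -2.24 (adjusted p = 9.8e-05). Nr1h3, which encodes LXRα, a sensor of oxysterols, was the 1 called gene among 14 LXR targets and genes of cholesterol efflux. It was lower in 4OHT (-1.21, adjusted p = 0.0321), at 21.7 and 19.5 CPM in medium and at 7.16, 7.98 and 24.4 CPM in 4OHT, with replicate 3 above both medium samples.

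Outside these lists, Slco4a1 encodes an organic anion transporter and had the smallest adjusted p of the genes named here. It was at 7.37 and 8.90 CPM in medium and at 115, 110 and 34.8 CPM in 4OHT, a log2 fold change of 3.68 (SE 0.23, adjusted p = 2.05e-05), and it was called in 17 of 19 alternative fits. Ednrb, the endothelin B receptor, was at 2.29 and 3.67 CPM in medium and at 32.6, 46.1 and 11.8 CPM in 4OHT (3.50, SE 0.33, adjusted p = 0.00035). Every 4OHT sample of both genes exceeded both medium samples, which was a condition of the rule that named them. Ednrb on non-ferroptotic supernatants ranged from 17.5 to 39.6 CPM, and the difference of 4OHT from their mean was -0.01 (SE 0.19, adjusted p = 0.994).

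The 5 most abundant genes called higher were Tgfbi, Fabp5, Hgsnat, Mrc1 and Spp1. Mrc1, the mannose receptor CD206, was at 117 and 122 CPM in medium and at 495, 567 and 323 CPM in 4OHT (1.93, SE 0.30, adjusted p = 0.00514), the 1 called gene of 11 scavenger receptors. Tgfbi, a secreted matrix protein induced by TGF-beta, rose from 220 and 252 CPM to 628, 532 and 293 CPM (1.20), and Hgsnat, a lysosomal acetyltransferase, from 222 and 214 CPM to 519, 387 and 423 CPM (1.16). Of 16 genes of lipid-associated macrophages, Spp1 and Fabp5 were called higher and Lpl lower, against 1.42% and 1.64% of all genes. Spp1, which encodes osteopontin, was at 112 and 163 CPM in medium and at 423, 493 and 160 CPM in 4OHT (2.21, SE 0.44, adjusted p = 0.0145), with 4OHT replicate 3 inside the range of medium. Fabp5, a fatty acid binding protein, was at 229 and 187 CPM in medium and at 457, 405 and 614 CPM in 4OHT (1.37, adjusted p = 0.0245). Lpl, the lipoprotein lipase, was at 4308 and 4515 CPM in medium and at 1593, 1800 and 3663 CPM in 4OHT (-1.08, adjusted p = 0.046). Lpl was not called with library totals as the scale.

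Of 17 tested genes of prostaglandins and other eicosanoids, 2 were called higher and 1 lower, with a median of 0.07. Of 19 chemokines 2 were called higher and 3 lower, with a median of -0.36. Over all genes 1.42% were called higher and 1.64% lower. Pf4, a chemokine of platelets and macrophages, was at 88.1 and 104 CPM in medium and at 400, 380 and 241 CPM in 4OHT (1.79, adjusted p = 0.00611). Pdgfa, a mitogen of mesenchymal cells, rose from 24.5 and 29.0 CPM to 66.1, 55.6 and 72.0 CPM (1.09). Ccl8, a monocyte chemokine, was called higher, but medium held at most 3 counts of it per sample and 4OHT had 8.64, 3.26 and 0.127 CPM, so that no fold is given. Alox5, the 5-lipoxygenase that starts leukotriene synthesis, was at 2.03 and 2.78 CPM in medium and at 13.5, 12.3 and 3.92 CPM in 4OHT (2.17, adjusted p = 0.0144). Ltc4s, the leukotriene C4 synthase, was called as well (1.59, adjusted p = 0.0385), with 4OHT replicate 3 inside the range of medium. The prostaglandin E2 receptor Ptger4 was the 1 eicosanoid gene called lower (-1.03, adjusted p = 0.00409). Itgb3, an integrin subunit used to bind apoptotic cells, was the 1 called gene of 14 for efferocytosis (1.36, adjusted p = 0.0296). Bhlhe41, a transcriptional repressor active in tissue macrophages, rose from 17.9 and 25.5 CPM to 62.9, 71.4 and 59.5 CPM (1.95).

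Interferon-stimulated genes were lower in 4OHT. Of 28 tested, 15 were called lower and 0 higher, against 1.64% of all genes called lower, with a median log2 fold change of -1.34. Their summed level was 19489 and 12398 CPM in medium and 9158, 7019 and 2198 CPM in 4OHT. Within 4OHT, replicate 3 was the lowest, and replicate 3 was also the lowest in ctrl, at 2726 CPM, against 9110.5 and 7526 CPM in ctrl replicates 1 and 2. Medium has no replicate 3. The list's sum in ctrl, 4OHT+Fer1 and Fer1 ranged from 2726 to 9110.5 CPM, and its median log2 fold change was -1.21 in ctrl and -1.20 in 4OHT+Fer1 against the same medium samples. Without the block 0 of the 28 genes were called by edgeR, with 18 at an unadjusted p under 0.05, while DESeq2 with the block called 19. With replicate 3 left out of all groups 14 were. With replicate 3 left out and no block, an alternative chosen after the data were seen, 6 were called. Without medium replicate 1 or 2, 3 and 4 were called.

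Rsad2, the antiviral enzyme viperin, was at 2842 and 1364 CPM in medium and at 817, 320 and 103 CPM in 4OHT, a log2 fold change of -2.15 (SE 0.25, adjusted p = 0.00116). Mx1, an antiviral GTPase, was at 371 and 221 CPM in medium and at 106, 57.3 and 12.3 CPM in 4OHT (-2.09, SE 0.30, adjusted p = 0.00343). Both medium samples of both genes exceeded every 4OHT sample. The RNA-binding proteins Ifit2 (-1.80) and Ifit3 (-1.83), the mitochondrial nucleotide kinase Cmpk2 (-1.75), the guanylate-binding protein Gbp2 (-1.70) and the ubiquitin-like Isg15 (-1.38) fell as well. So did 2 factors that drive the response, Irf7, from 925 and 620 CPM to 316, 195 and 39.1 CPM (-1.79), and Stat2 (-1.09). The most abundant called members of the interferon-inducible Ifi200 family, Mndal (-1.49) and Ifi203 (-1.46), belong to a multigene family and overlap each other on the same strand, so that reads could have been split between them. None of Rsad2, Mx1, Ifit2, Ifit3, Irf7, Stat2, Isg15, Gbp2 and Cmpk2 was called in 4OHT against the mean of the non-ferroptotic supernatants, where Rsad2 had a difference of -0.15 (adjusted p = 0.844) and Irf7 of -0.47 (adjusted p = 0.341).

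Windows of Rsad2 and Isg15 are shown because the interferon-stimulated response element (ISRE), the site of interferon regulatory factors and STAT complexes, is the element known for this group. Capitals mark matches to its core letters GAAANNGAAA on either strand, which in Isg15 overlap each other. Rsad2 is shown from chr12:26456423-26456702 and Isg15 from chr4:156200789-156201068, both on the minus strand (RefSeq, GRCm38.p6).
Rsad2: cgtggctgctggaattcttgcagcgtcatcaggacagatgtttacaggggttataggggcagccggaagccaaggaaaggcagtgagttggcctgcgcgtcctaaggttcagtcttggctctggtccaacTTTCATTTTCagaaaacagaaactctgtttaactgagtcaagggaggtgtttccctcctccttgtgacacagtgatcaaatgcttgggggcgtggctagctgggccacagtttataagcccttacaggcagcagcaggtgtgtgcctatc
Isg15: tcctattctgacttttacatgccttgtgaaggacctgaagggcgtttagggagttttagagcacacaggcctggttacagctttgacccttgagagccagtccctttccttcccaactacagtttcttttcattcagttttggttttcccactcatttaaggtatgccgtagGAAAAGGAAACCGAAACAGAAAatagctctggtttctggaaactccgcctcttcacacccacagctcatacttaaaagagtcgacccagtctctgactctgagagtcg
Rsad2 holds 1 match, which starts 120 bases before the start, and Isg15 holds 3, which start 78, 72 and 66 bases before it. Of the 28 genes of the list, 22 had a window and 13 of these (59.1%) held the letters, against 3.8% of all and 3.98% of tested genes with a window. Among the genes called lower that had a window, 34 of 140 (24.3%) held them, and among those called higher 5 of 150 (3.33%).

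**Figure D3:**
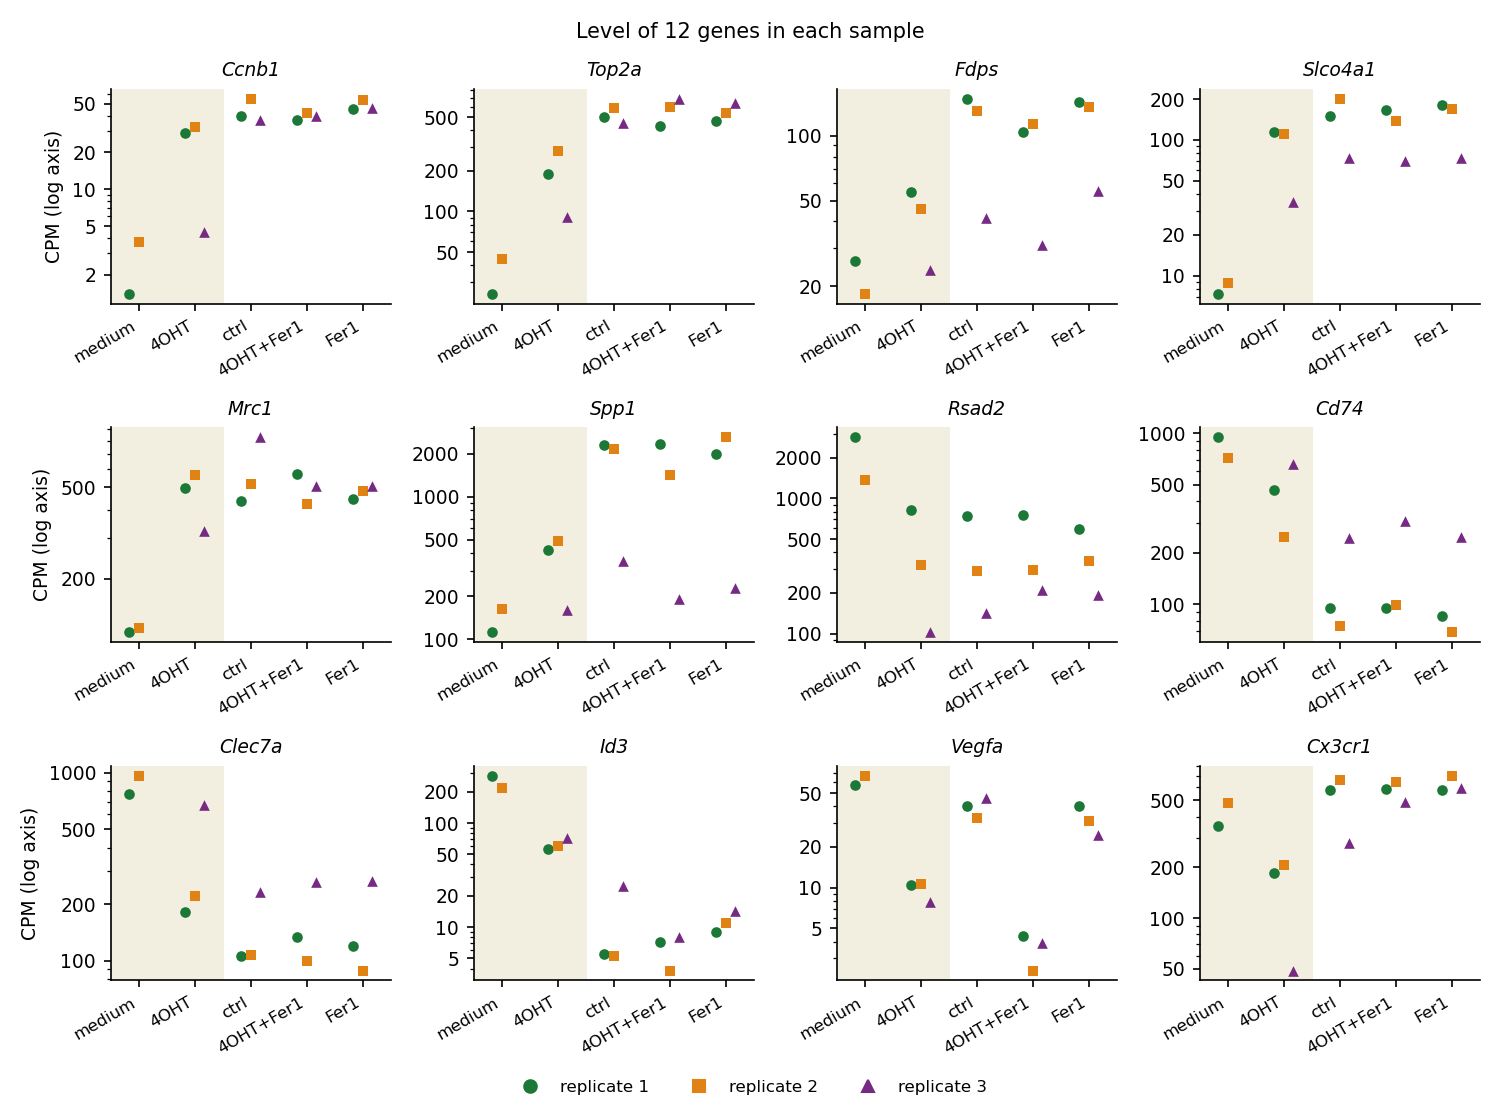
Level of 12 genes in every sample (CPM, log axis), with 1 point a sample, shaped by replicate number and the shaded columns marking the comparison. Rsad2 fell from 2842 and 1364 CPM in medium to at most 817 CPM in 4OHT, and Vegfa was at most 10.6 CPM in 4OHT and also low in 4OHT+Fer1, where Ferrostatin-1 was present.

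The 3 chemokines called lower were Cxcl10, Ccl5 and Cxcl14. Cxcl10, a chemokine of T cells, was at 484 and 174 CPM in medium and at 163, 48.6 and 17.3 CPM in 4OHT (-2.07, SE 0.41, adjusted p = 0.0148). Ccl5 was at 152 and 85.7 CPM in medium and at 34.1, 33.1 and 7.34 CPM in 4OHT (-1.89, adjusted p = 0.00859). Cxcl14, a chemokine of epithelia and myeloid cells, fell from 30.2 and 39.3 CPM to 10.9, 10.6 and 15.3 CPM (-1.55, SE 0.21, adjusted p = 0.00317), with replicate 3 the highest of the 4OHT samples. Cxcl9 (-1.41, adjusted p = 0.126) and Cxcl11 (-1.59, adjusted p = 0.337), which like Cxcl10 bind the receptor CXCR3 and were picked here after their values were seen, were not called and had few counts, with at most 4.67 CPM of Cxcl9 and 2.41 CPM of Cxcl11 in medium.

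Some genes of antigen presentation were lower in 4OHT than in medium. Of 15 tested genes of MHC class II presentation, 4 were called lower, against 1.64% of all genes. They were the invariant chain Cd74 and the class II chains H2-Aa, H2-Ab1 and H2-Eb1. Cd74 was at 949 and 721 CPM in medium and at 466, 246 and 658 CPM in 4OHT (-1.42, SE 0.22, adjusted p = 0.0047). H2-Ab1 was at 381 and 257 CPM in medium and at 128, 104 and 253 CPM in 4OHT (-1.60, adjusted p = 0.0166), with replicate 3 just below the lower medium sample. H2-Aa (-1.70) and H2-Eb1 (-1.78) were called as well, and in H2-Eb1 the 4OHT replicate 3, at 155 CPM, lay inside the range of medium. The 9 non-ferroptotic samples were lower still, with Cd74 between 68.5 and 307 CPM, and 4OHT exceeded their mean in Cd74 (1.79, adjusted p = 0.000143), H2-Aa (1.55, adjusted p = 0.0052), H2-Ab1 (1.69, adjusted p = 0.00242) and H2-Eb1 (1.52, adjusted p = 0.00679). Ciita, the transactivator of class II genes, was at 58.4 and 52.3 CPM in medium and at 39.6, 31.3 and 64.2 CPM in 4OHT and was not called (-0.90, adjusted p = 0.0827). Without the block 0 of the 15 were called by edgeR, with 0 at an unadjusted p under 0.05, while DESeq2 with the block called 4. Without medium replicates 1 and 2 and 4OHT replicates 1 and 2, 0, 1, 2 and 1 were called. Of 16 class I genes only Tap1, a subunit of the peptide transporter, was called (-1.29, adjusted p = 0.00717). Of 10 costimulatory and checkpoint ligands, Cd40 (-1.83, adjusted p = 0.00884) and Cd274, which encodes PD-L1 (-1.15, adjusted p = 0.00671), were called lower.

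Of 13 C-type lectin receptors 2 were called lower, of 15 genes of interleukin-1 and the inflammasome 2, and of 20 Toll-like receptors and adapters 1, against 1.64% of all genes. Clec7a, the beta-glucan receptor Dectin-1, was at 776 and 968 CPM in medium and at 182, 222 and 675 CPM in 4OHT (-1.97, SE 0.22, adjusted p = 0.00106), and the other lectin receptor called lower was Klrk1, which encodes NKG2D. Nlrp3, the inflammasome sensor, and Il18bp, the decoy of interleukin-18 (-1.48, adjusted p = 0.0299), were called lower as well. Irak2, a kinase downstream of Toll-like receptors (-1.01, adjusted p = 0.0158), was not called with library totals as the scale. Of 20 macrophage transcription factors, Irf5 (-1.18, adjusted p = 0.0392) and Nr1h3 were called lower and Bhlhe41 higher. The marker Aif1, an actin-binding protein, fell from 680 and 472 CPM to 303, 214 and 247 CPM (-1.23), and Fcgr1, a receptor of IgG that is itself induced by interferon, by 1.11 on the log2 scale.

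Of 15 other cytokines and growth factors tested, Vegfa and Pdgfb were called lower and Pdgfa higher, with a median of -0.04. Of 18 genes of Id proteins and TGF-beta and BMP signalling, Id3 was called lower and Tgfbi higher, with a median of -0.34. Over all genes 1.42% were called higher and 1.64% lower. Tgfb3, a ligand of the TGF-beta family, was at 6.60 and 5.45 CPM in medium and at 0.527, 0.816 and 0.886 CPM in 4OHT (-3.20, SE 0.43, adjusted p = 0.00273). Bmp2, a ligand of the BMP branch, fell from 24.4 and 20.7 CPM to 4.0, 4.81 and 2.91 CPM (-2.58, adjusted p = 0.012). Id3, an inhibitor of bHLH factors that BMP signals induce, was at 286 and 216 CPM in medium and at 56.3, 60.8 and 72.5 CPM in 4OHT (-2.26, SE 0.36, adjusted p = 0.00571). The 4OHT level of Id3 lay between the groups, since non-ferroptotic samples had 3.82 to 24.6 CPM and 4OHT exceeded their mean by 2.85 (adjusted p = 0.000208). Bmp2 also exceeded the non-ferroptotic mean in 4OHT, by 2.53 (adjusted p = 0.00603). Flt1, the receptor VEGFR1, fell from 33.1 and 19.0 CPM to 4.53, 2.45 and 2.78 CPM (-2.76, SE 0.25, adjusted p = 0.000288). Pdgfb was called lower (-1.34, adjusted p = 0.00571), with 4OHT replicate 3, at 58.0 CPM, above both medium samples. Mmp13, a collagenase (-1.55, adjusted p = 0.0257), and Pmaip1, the BH3-only protein NOXA (-1.27, adjusted p = 0.04), were the 1 called gene each of 15 metalloproteinases and inhibitors and of 14 BCL2 family genes. The adhesion receptor Adgre4 (-2.87), the immunoglobulin superfamily gene Igsf9 (-2.78) and the p53-inducible Trp53i11 (-2.54) were called lower as well.

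Vegfa, the vascular endothelial growth factor, and Nlrp3 were low in both groups with 4OHT. Vegfa was at 57.0 and 67.3 CPM in medium and at 10.5, 10.6 and 7.85 CPM in 4OHT, a log2 fold change of -2.66 (SE 0.26, adjusted p = 0.000421), and was called in 17 of 19 alternative fits. In 4OHT+Fer1 it was at 4.39, 2.44 and 3.89 CPM. In ctrl it was at 40, 32.7 and 45.6 CPM, and in Fer1 at 39.8, 31.0 and 24.5 CPM. Nlrp3 was at 34.5 and 31.0 CPM in medium, at 9.90, 11 and 5.19 CPM in 4OHT (-1.80, SE 0.29, adjusted p = 0.00572), at 8.16, 4.35 and 3.79 CPM in 4OHT+Fer1, at 20.5, 24.1 and 25.5 CPM in ctrl and at 25.4, 27.0 and 19.4 CPM in Fer1. For both genes no sample with 4OHT overlapped a sample without it. The comparison of 4OHT+Fer1 with Fer1, chosen after these values were seen, uses none of the 4OHT and medium samples for its groups. In it 3 genes (0.0233%) were called, all lower in 4OHT+Fer1: Vegfa (-3.14, adjusted p = 0.000433), Nlrp3 (-2.16, adjusted p = 0.0194) and Klk1b11 (-2.82, adjusted p = 0.0194). In this quasi-likelihood test of edgeR, 266 genes had an unadjusted p under 0.05. Klk1b11, which was not called in 4OHT against medium (-1.25, adjusted p = 0.0725), belongs to a family of near-identical kallikreins between which reads could be split. The 4OHT compound in the supernatant and the loss of GPX4 in the MEFs cannot be told apart in these samples.

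A further rule took genes called against medium that differed in the same direction from the mean of the non-ferroptotic supernatants. The second difference needed an adjusted p under 0.05 and no fold threshold. Both differences used the same 4OHT samples, so that their agreement in direction is not independent evidence. Predicted genes, pseudogenes and genes with a mean under 2 CPM over the 5 samples were left out. Of the remaining genes, 7 met this rule, 1 higher and 6 lower. The 1 higher was Uck2, a uridine-cytidine kinase of the nucleotide salvage pathway, at 7.62 and 6.34 CPM in medium, at 18.3, 23.2 and 12.8 CPM in 4OHT and between 4.63 and 11.3 CPM on non-ferroptotic supernatants. Its log2 fold change was 1.46 against medium (adjusted p = 0.026) and 0.98 against the non-ferroptotic mean (adjusted p = 0.0256). Ccdc80, a secreted matrix protein, was at 5.71 and 3.11 CPM in medium, at 0.948, 0.363 and 1.01 CPM in 4OHT and between 1.15 and 9.80 CPM elsewhere (-3.0 and -2.46). Cx3cr1, the fractalkine receptor, was at 353 and 481 CPM in medium, at 186, 207 and 48.8 CPM in 4OHT and between 278 and 701 CPM on non-ferroptotic supernatants (-1.37, adjusted p = 0.0411, and -2.08, adjusted p = 0.0028). In both genes every 4OHT sample was below every other sample, and the rule had picked both for being lower in 4OHT. For Ccdc80 the margin was narrow, 1.01 against 1.15 CPM. Its lowest 4OHT level, 0.363 CPM, lay near the floor of 3 counts, so that the size of its folds is uncertain. Cx3cr1 overlaps Csrnp1, Gorasp1 and Xirp1 on the same strand. The other lower genes were the immune receptor Slamf9 (-2.31 and -1.31), the Schlafen genes Slfn9 (-1.54 and -1.06) and Slfn3 (-1.46 and -1.14) and the nonclassical class I gene H2-T24 (-1.32 and -0.77). Schlafen and H2-T genes are multigene families whose members can share reads.

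A list of genes that the study names for its comparison of ferroptotic with control supernatant was also set against medium, with some that its running text does not name. Most genes of the list were named from these samples, so that the list is not independent evidence. The study also measured Cd74 and Ptger3 by qPCR. Its text names Cd14 from surface protein on other macrophages. Marco, Clec4n, Arg2, Serpinb2, Ptges and Ptgds are not named in its running text. Of 17 tested, 2 were called lower than medium, Cd74 and Cd274, against 1.64% of all genes, and 0 higher. In 4OHT against the mean of the non-ferroptotic supernatants 11 were called higher, against 0.591% of all genes called higher and 1.11% called lower. Il1b, the precursor of interleukin-1β, was at 37.3 and 52.6 CPM in medium, at 37.4, 34.1 and 50.2 CPM in 4OHT and between 2.28 and 17.7 CPM on non-ferroptotic supernatants, and 4OHT did not pass the test against medium (-0.66, SE 0.39, adjusted p = 0.486). The log2 fold change of Il1b ran from -1.18 to -0.15 over the 19 alternative fits. Marco, a scavenger receptor, was at 8.0 and 12.1 CPM in medium and at 4.43, 9.07 and 11.4 CPM in 4OHT (-0.95, SE 0.50, adjusted p = 0.413). Clec4n, the lectin Dectin-2, was at 61.6 and 77.2 CPM in medium and at 145, 176 and 213 CPM in 4OHT, without overlap, and was not called (0.90, SE 0.39, adjusted p = 0.285). Of the 19 alternative fits, 3 called Clec4n. Ptger3, a prostaglandin E2 receptor, was at 1.52 and 2.78 CPM in medium and at 4.74, 4.62 and 4.56 CPM in 4OHT, also without overlap and not called (0.77, SE 0.54, adjusted p = 0.587).

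Of the 39 lists of processes, 11 held 0 called genes by edgeR's quasi-likelihood test and are grouped here for that reason. In that test 33 of their 178 members had an unadjusted p under 0.05, against 2026 of all 12851 genes. DESeq2 called 5 of the 178. These 11 lists were 23 NRF2 antioxidant targets (median log2 fold change 0.28), 18 genes of iron handling and ferroptosis control (-0.0052), 24 genes of the ATF4 and ER stress response (-0.0047), 15 heat shock proteins (-0.14), 27 lysosomal genes (0.17), 17 NF-κB subunits and inhibitors (-0.13), 16 immediate early factors (-0.75), 13 genes of arginine and polyamine metabolism (-0.11), 6 CSF receptors (-0.36), 6 genes of the aryl hydrocarbon receptor pathway (-0.14) and 13 mitochondrially encoded genes (0.10). Of 27 genes of glycolysis and hypoxia, Vegfa alone was called, and the median was 0.24. A p that misses the threshold does not show that these genes were equal, and changes under the fold threshold are not called.

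**Figure D4:**
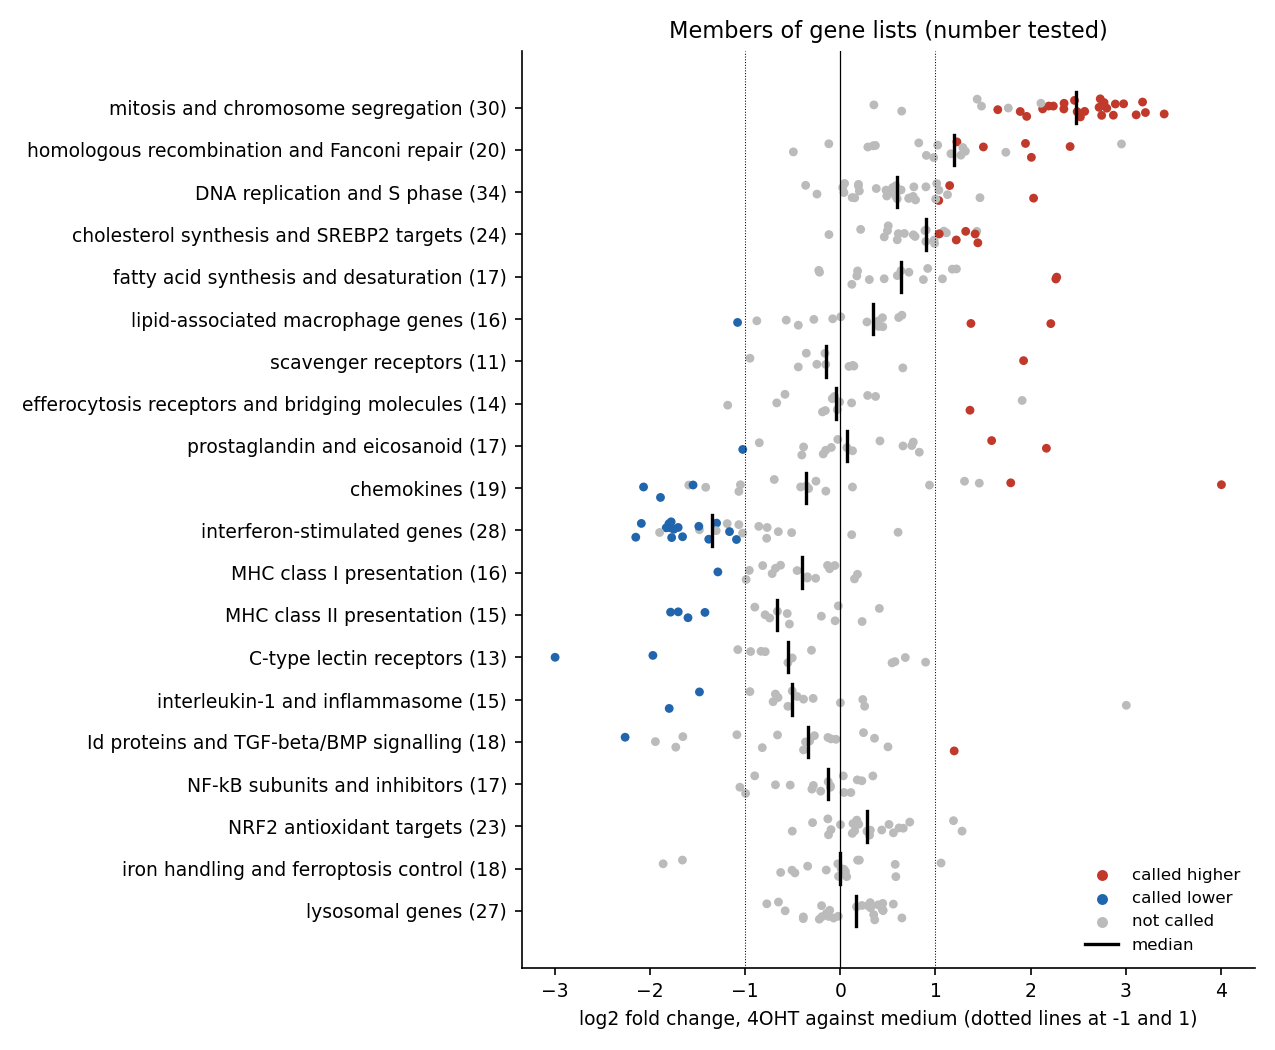
Log2 fold change in 4OHT against medium of the tested members of 20 gene lists, with 1 point a gene and a black bar at the list's median. Mitosis genes lie to the right, with a median of 2.48 and 24 of 30 called higher, interferon-stimulated genes to the left, with a median of -1.34 and 15 of 28 called lower, and lists such as lysosomal genes hold 0 called members.

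Fibroblast RNA was measured because the supernatants came from MEFs. Of 14 tested fibroblast markers, 4 were called lower in 4OHT than in medium, Col1a1 (-1.53), Sparc (-1.18), Col1a2 (-1.14) and Tagln (-1.99), and 0 higher, against 1.64% of all genes called lower. Col1a1, the main chain of type I collagen, was at 33.7 and 12.1 CPM in medium and at 12.1, 5.08 and 13 CPM in 4OHT, and Col1a2 at 62.6 and 19.9 CPM in medium and at 33.1, 9.70 and 27.8 CPM in 4OHT. Both genes overlapped between the groups and were lowest in replicate 2 of each. Fibroblast markers were thus counted in pBMDM samples that had been given fresh medium, and their part in the other results was not tested. Without the block 0 were called by edgeR, DESeq2 with the block called 7, and without medium replicates 1 and 2 and 4OHT replicates 1, 2 and 3 there were 0, 0, 0, 2 and 2.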

How the data were processed

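RNA of 14 pBMDM samples in 5 groups was measured with QuantSeq libraries, which are primed at the 3′ ends of transcripts. The expected counts per gene were made and deposited by the authors, who aligned with STAR 2.7.10a and quantified with Salmon 1.5.2. The submitters' notes name the builds GRCh38 and GRCm38, the gene identifiers are from mouse, and the strand setting is not given in the sources used here. Of 103 genes named with values, 18 overlap another gene on the same strand and 36 on the opposite strand (GENCODE M21), and reads of such pairs may not be told apart. A second deposited table holds the authors' own comparisons (DESeq2 1.36.0) and was not used, nor were its 14 columns of per-sample values.

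Expected counts were rounded to whole numbers (30109 were not whole), scaled by TMM and filtered with filterByExpr (minimum count 10), which left 12851 of 55414 genes. Symbols were matched for 52081 identifiers. edgeR 4.0.16 (R 4.3.3) fitted group plus replicate number over all 14 samples with its quasi-likelihood test, two-sided. Calls needed an absolute log2 fold change above 1 and a Benjamini-Hochberg adjusted p under 0.05. The replicate number was kept as a block because the study's model used the mouse as a batch. Deviations from the group means correlated with a median r of 0.247 over 26 pairs of samples with the same number and of -0.139 over 52 other pairs. Deviations within a group cancel out, so that a positive r in pairs with the same number lowers r in the others. The contrast of the medians is thus partly fixed by the calculation and is not a test of the block. The titles were taken as the source of the number. Which mouse a number stands for is not given in the labels. The script was tested on simulated data. These held no replicate effect and no differences between the other groups. They therefore did not test how the fit sets 4OHT replicate 3 against medium.

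Genes were named by rule: up to 12 per direction with the largest change and no overlap, those that also differed from the non-ferroptotic mean, the 5 most abundant per direction, called members and the first 3 members of 46 gene lists (39 of processes and 7 of cell type markers), the genes the study names, and called cell type markers. The text describes a subset of them, and some genes that met the rule are not reported here. The comparison, the lists and the members were chosen with earlier results of these data known. Alternatives were DESeq2 1.42.0, other scaling, filters and sample sets, and fits without the block. Promoter windows are 280 bases.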

Additional observations from a re-analysis of the deposited data

How the results depend on the processing

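No gene called and named in the text changed direction under any of the 19 alternatives. The alternative without a threshold on the fold change is counted among the 19. It is the main fit itself, so that it could neither change a direction nor lose a call. Without the replicate block 97 genes were called (67 higher, 30 lower). With the 5 samples alone, 667 were called with the block (328 higher, 339 lower) and 1 without it (0 higher, 1 lower, Vegfa). With ctrl as the only other group, an alternative chosen after seeing the data, 203 were called (86 higher, 117 lower), and without replicate 3 and without the block, also chosen after seeing the data, 346 were called (224 higher, 122 lower). Leaving out 1 sample gave 74 to 468 calls (25 to 274 higher, 45 to 194 lower), and leaving out 1 replicate number from all groups gave 0 to 492 (0 to 275 higher, 0 to 217 lower). DESeq2 called 534 genes, RLE scaling 394, library totals 393, no low-count filter 505, a stricter filter 390 and no threshold on the fold change 548. The cause of these differences was not tested. Of the 93 genes named and called, 27 were called without the block, 92 by DESeq2 and 86 with library totals. The limits are 2 medium samples, the absence of medium replicate 3, and the floor of 3 counts.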
